A study of Mus musculus with 24 samples.

Results

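Glutathione peroxidases, peroxiredoxins and the thioredoxin that recharges the peroxiredoxins were followed as 10 genes: Gpx1, Gpx2, Gpx3, Gpx4, Prdx1, Prdx2, Prdx3, Prdx5, Prdx6 and Txn1. A member was taken as any probe set of the Affymetrix array whose annotation names 1 gene and that gene is on the list. By this rule 7 of the 10 genes were measured, among 12393 genes with a probe set of their own, and they carried 10 probe sets. Gpx1, Gpx2, Gpx3 and Prdx3 had 1 probe set each, and Gpx4, Prdx2 and Txn1 had 2. The 5 probe sets of Prdx1 are annotated to a second gene as well and were not used, and Prdx5 and Prdx6 were not analysed here. Of the 10 probe sets, 9 lay above the limit on dim signals (a geometric mean signal of 138) and were tested. The tenth, 1430979_a_at of Prdx2, had signals between 12.6 and 144 and was not tested.

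The arrays measured lung RNA of mice in 6 groups of 4. The mice breathed filtered air, diesel exhaust (DE) at 500 ug/m3 (DE500, labelled 0.5DE) or DE at 2000 ug/m3 (DE2000, labelled 2.0DE) for 4 hours a day on 5 days. Each exposure was combined with 100 ug of ovalbumin (OVA, an egg protein used as an allergen) on 3 days or with saline on 3 days. The labels give no strain, age or route for any group and do not say whether each replicate is a mouse of its own, so p-values measure the spread between arrays, and 4 arrays a group limit the precision. Lung markers were bright, for example Sftpc, a surfactant protein of alveolar type 2 cells, with a geometric mean signal of 28839, and Scgb1a1, the secretoglobin of club cells, with 24391. Alveolar macrophage markers ran from 23.3 for Marco to 3453 for Chil3, and neutrophil markers from 15 for Camp to 1641 for S100a9. Heart muscle markers were present too, with all 8 above the limit. In whole lung RNA, fewer cells of a type and less RNA per cell cannot be told apart.

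Glutathione peroxidases reduce hydrogen peroxide and lipid peroxides at the expense of glutathione, and several of them carry selenocysteine in the active site. Peroxiredoxins do the same with a reactive cysteine, and typical members are returned to their reduced form by thioredoxin and thioredoxin reductase. In lung these enzymes stand between inhaled oxidants and membranes, and several of their genes are known targets of the transcription factor Nrf2, which acts through the antioxidant response element. Gpx1 is the cytosolic and mitochondrial enzyme of most cells, Gpx2 an epithelial form best known from gut, Gpx3 the secreted plasma form and Gpx4 the enzyme that reduces phospholipid peroxides within membranes and restrains ferroptosis. Prdx2 is a cytosolic peroxiredoxin that is abundant in red blood cells, Prdx3 is its mitochondrial counterpart, and Txn1 is the cytosolic thioredoxin.

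The promoter windows of 4 genes are shown because the smallest p-values for exhaust and the calls for OVA fell on them. Each window holds 250 bases before and 50 bases from the start of transcription, read 5′ to 3′ on the strand of the gene, from RefSeq (GRCm38.p6). Capitals mark the GC box GGGCGG on either strand. The other measured members lie on chromosomes 9 (Gpx1), 11 (Gpx3) and 8 (Prdx2).
Gpx2 promoter, chr12:76795505-76795804: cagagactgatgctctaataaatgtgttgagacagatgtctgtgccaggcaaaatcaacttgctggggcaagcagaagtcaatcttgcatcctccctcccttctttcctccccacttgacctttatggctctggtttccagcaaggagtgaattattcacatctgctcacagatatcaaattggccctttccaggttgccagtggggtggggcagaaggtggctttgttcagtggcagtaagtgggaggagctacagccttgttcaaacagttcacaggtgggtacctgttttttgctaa
Gpx4 promoter, chr10:80053315-80053614: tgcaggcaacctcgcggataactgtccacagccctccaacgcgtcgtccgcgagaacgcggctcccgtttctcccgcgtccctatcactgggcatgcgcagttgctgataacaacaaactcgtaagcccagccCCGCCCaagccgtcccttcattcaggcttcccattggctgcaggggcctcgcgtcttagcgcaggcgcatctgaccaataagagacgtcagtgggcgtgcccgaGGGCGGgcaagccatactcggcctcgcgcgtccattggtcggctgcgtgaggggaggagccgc
Prdx3 promoter, chr19:60874489-60874788: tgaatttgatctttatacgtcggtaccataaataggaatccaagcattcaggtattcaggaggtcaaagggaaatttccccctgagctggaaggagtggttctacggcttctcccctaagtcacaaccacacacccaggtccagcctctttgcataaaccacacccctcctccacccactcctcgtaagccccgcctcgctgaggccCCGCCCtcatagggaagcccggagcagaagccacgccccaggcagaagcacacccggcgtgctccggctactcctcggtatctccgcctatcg
Txn1 promoter, chr4:57956362-57956661: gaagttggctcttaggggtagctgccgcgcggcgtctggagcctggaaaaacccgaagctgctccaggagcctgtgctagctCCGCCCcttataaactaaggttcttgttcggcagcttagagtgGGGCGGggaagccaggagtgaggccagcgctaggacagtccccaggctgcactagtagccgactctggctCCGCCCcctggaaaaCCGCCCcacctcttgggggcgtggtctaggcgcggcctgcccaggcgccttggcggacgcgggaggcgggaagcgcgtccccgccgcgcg
The Txn1 window held 4 GC boxes, the Gpx4 window 2, the Prdx3 window 1 and the Gpx2 window 0. Over the 7 measured genes RefSeq gives 10 such windows, of which 8 held a GC box, against 35.7% of all 32851 windows. Gpx4 has 4 of the 10 windows, and 2 of these overlap and hold the same GC boxes, so the windows are not separate loci. The TATA motif TATAAA, on either strand, was found in the windows of Txn1 and Prdx3, 2 of the 10, against 13.6% of all windows. The core of the antioxidant response element, searched as TGACNNNGC on both strands, was found in 0 of the 10 windows and in 12.4% of all windows. No occurrence of the 3 motifs was scored by its surroundings, and a match is a match of letters only.

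**Figure D1:**
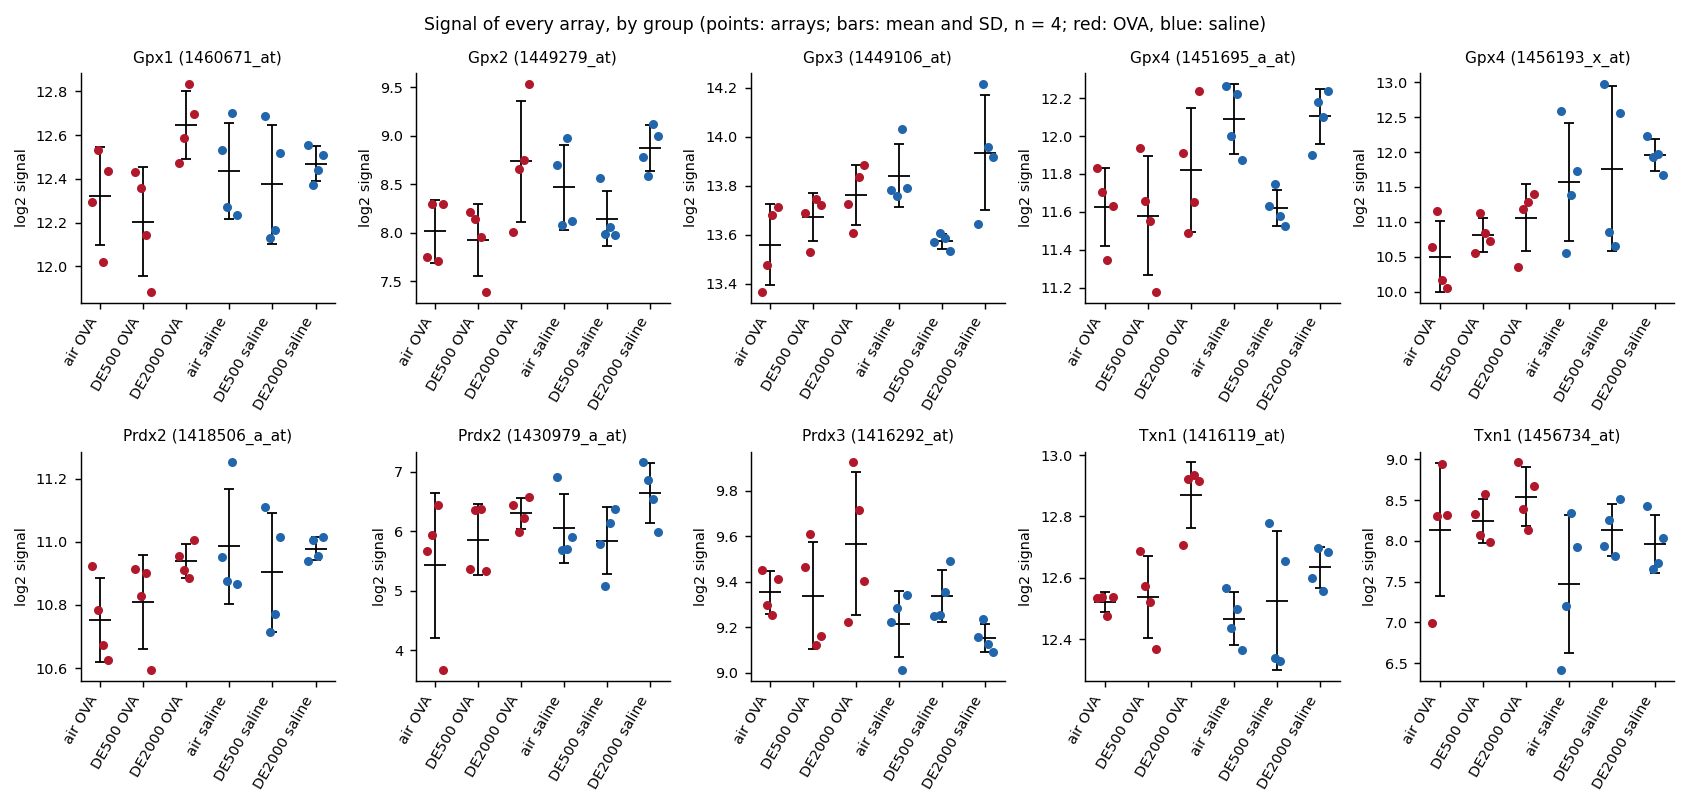
Log2 signal of the 10 probe sets on every array, 1 panel per probe set, with exposures from air to DE2000 in OVA (red) and then in saline (blue); black bars give the mean and SD of 4 arrays. Gpx4 1456193_x_at ranged most between saline arrays, and Txn1 1416119_at on the DE2000 arrays with OVA lay above every array of air with OVA.

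Among the glutathione peroxidases, no probe set was called for diesel exhaust, and the largest difference was that of Gpx2 between the concentrations. In OVA mice the Gpx2 signal was 216, 315, 209 and 314 in air, 297, 282, 248 and 167 at DE500 and 258, 402, 429 and 742 at DE2000. In saline mice it was 414, 270.2, 504 and 279 in air, 378, 254, 267 and 252 at DE500 and 438, 385, 557 and 510.0 at DE2000. The DE2000 arrays with saline all lay above those of DE500 with saline, whereas with OVA 1 of the 4 DE2000 arrays fell within the range of air and of DE500. Averaged over saline and OVA, the log2 difference of DE2000 minus DE500 was 0.77 ± 0.19 (SE), 1.70-fold (95% interval 1.30 to 2.23), with an adjusted p of 0.228 in limma. DE2000 minus air was 0.72 ± 0.27 in OVA (adjusted p = 0.573) and 0.40 ± 0.27 in saline. DE500 minus air was -0.32 ± 0.27 in saline. In OVA it was -0.09 ± 0.27, and between -0.19 and 0.09 when 1 array was left out, so that its sign turned, above 0 without replicate 2 or 4 of air or replicate 4 of DE500.

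Gpx1 differed less between groups than Gpx2, and none of its differences was called. In OVA mice its signal was 5020.3, 5931, 4156 and 5551 in air, 5533, 5251, 4530.4 and 3776 at DE500 and 5679, 6154, 7308 and 6648 at DE2000. Every DE2000 array with OVA lay above every DE500 array with OVA, and 3 of the 4 lay above every air array with OVA. In saline mice Gpx1 gave 5929, 4947, 6654 and 4823 in air, 6587, 4481, 4600.0 and 5862 at DE500 and 6019, 5305, 5566 and 5826 at DE2000, with overlap throughout. DE2000 minus air was 0.33 ± 0.15 in OVA and 0.03 ± 0.15 in saline, and DE2000 minus DE500 averaged 0.27 ± 0.10 (adjusted p = 0.450 by limma).

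Gpx3, the secreted form, was bright on every array. In OVA mice its signals were 10561, 11409, 13126 and 13451 in air, 13200.4, 11836, 13740.4 and 13513 at DE500 and 13544, 12487, 14614 and 15117 at DE2000. In saline mice they were 14097, 13874, 16748 and 14184 in air, 12154, 12471, 12296 and 11868 at DE500 and 12802, 19029.5, 15926 and 15450.4 at DE2000. Every DE500 array with saline lay below every air array with saline, and also below every DE2000 array with saline, while the OVA groups overlapped. DE500 minus air was -0.27 ± 0.11 in saline, 0.831-fold (95% interval 0.709 to 0.973), with an adjusted p of 0.508 in limma, and 0.11 ± 0.11 in OVA.

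The main Gpx4 probe set, 1451695_a_at, had the same low DE500 group in saline. In OVA mice its signals were 3637, 3339, 2599.9 and 3169.9 in air, 3916, 3227, 3001 and 2314 at DE500 and 3851, 2868, 3220.0 and 4829 at DE2000, and the groups overlapped. In saline mice they were 4925, 4091, 4779 and 3749 in air, 3166, 3442, 3061 and 2950.2 at DE500 and 3821, 4633, 4388 and 4827 at DE2000, and the DE500 arrays lay below all arrays of both other groups. DE500 minus air with saline was -0.47 ± 0.16, 0.723-fold (95% interval 0.576 to 0.907), and it missed the threshold with an adjusted p of 0.376 in limma. The second probe set, 1456193_x_at, whose suffix marks probes that can bind other transcripts, did not have a low DE500 group in saline. It read 6178, 1504, 2683 and 3388 in air, 8080.0, 1844, 1605 and 6059 at DE500 and 4809, 3914, 4025 and 3275 at DE2000 with saline. The 2 high arrays at DE500, replicates 1 and 4, are the arrays with the highest 3'/5' ratios, a measure of RNA quality described with OVA. DE500 minus air for 1456193_x_at was 0.19 ± 0.43 with them and -0.82 ± 0.37 without them and without replicate 4 of DE2000 with OVA. The Gpx4 value for DE500 therefore differs in sign between the 2 probe sets on all arrays, and the part of RNA quality in it was not tested.

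Neither measured peroxiredoxin was called for exhaust. Prdx2 1418506_a_at ranged over 1544 to 2057 on the OVA arrays and 1679.7 to 2439.7 on the saline arrays. Its DE2000 minus air difference was 0.19 ± 0.11 in OVA and -0.01 ± 0.11 in saline, a narrow span for all 6 groups. Of the red blood cell markers 3 of 8 were on the array. For markers and lists, on the array means a probe set whose annotation names that gene alone. Only Alas2, the haem synthesis enzyme of red cell precursors, was tested, at a geometric mean signal of 2836. Hba-a1 and Slc4a1 were at 67.1 and 93.8. The summed signal of the 3 was 2698 to 5285 at DE2000 against 2044 to 5163 in air with OVA. With saline it was 3391 to 3859 at DE2000 against 2138 to 3461 in air. The part of red blood cells in the Prdx2 signal was not tested. In OVA mice Prdx3 gave 701, 629, 609.8 and 682 in air, 706, 781, 557 and 573 at DE500 and 598, 973, 840.3 and 677 at DE2000. In saline mice Prdx3 gave 598, 624, 516 and 649 in air, 608, 611, 655 and 719 at DE500 and 570.2, 603, 559 and 546 at DE2000. The DE2000 arrays with OVA spread the widest, with 2 arrays near those of air and 2 above them. DE2000 minus air was 0.21 ± 0.14 in OVA and -0.06 ± 0.14 in saline.

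Txn1 had the smallest unadjusted p of the members for DE2000 in OVA mice, and it was the 1 member of 9 tested probe sets whose DE2000 and air groups with OVA did not overlap. Among all tested probe sets 4.35% did not overlap in that comparison. Its main probe set, 1416119_at, read 5936, 5946, 5689.9 and 5939.5 in air, 6598, 6087, 5875 and 5289 at DE500 and 6689, 7761, 7825 and 7724 at DE2000 in OVA mice. In saline mice it read 6063, 5547, 5785 and 5277 in air, 7031, 5172, 5145 and 6452 at DE500 and 6204, 6646, 6029.6 and 6577 at DE2000. DE2000 minus air was 0.35 ± 0.10 in OVA, 1.27-fold (95% interval 1.10 to 1.47), with an unadjusted p of 0.00241 and an adjusted p of 0.492 in limma. In saline the difference was 0.17 ± 0.10, and averaged over both arms it was 0.26 ± 0.07 (adjusted p = 0.364). The dimmer probe set, 1456734_at, ranged from 85.1 to 501, gave 0.40 ± 0.36 for DE2000 minus air in OVA and 0.49 ± 0.36 in saline.

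**Figure D2:**
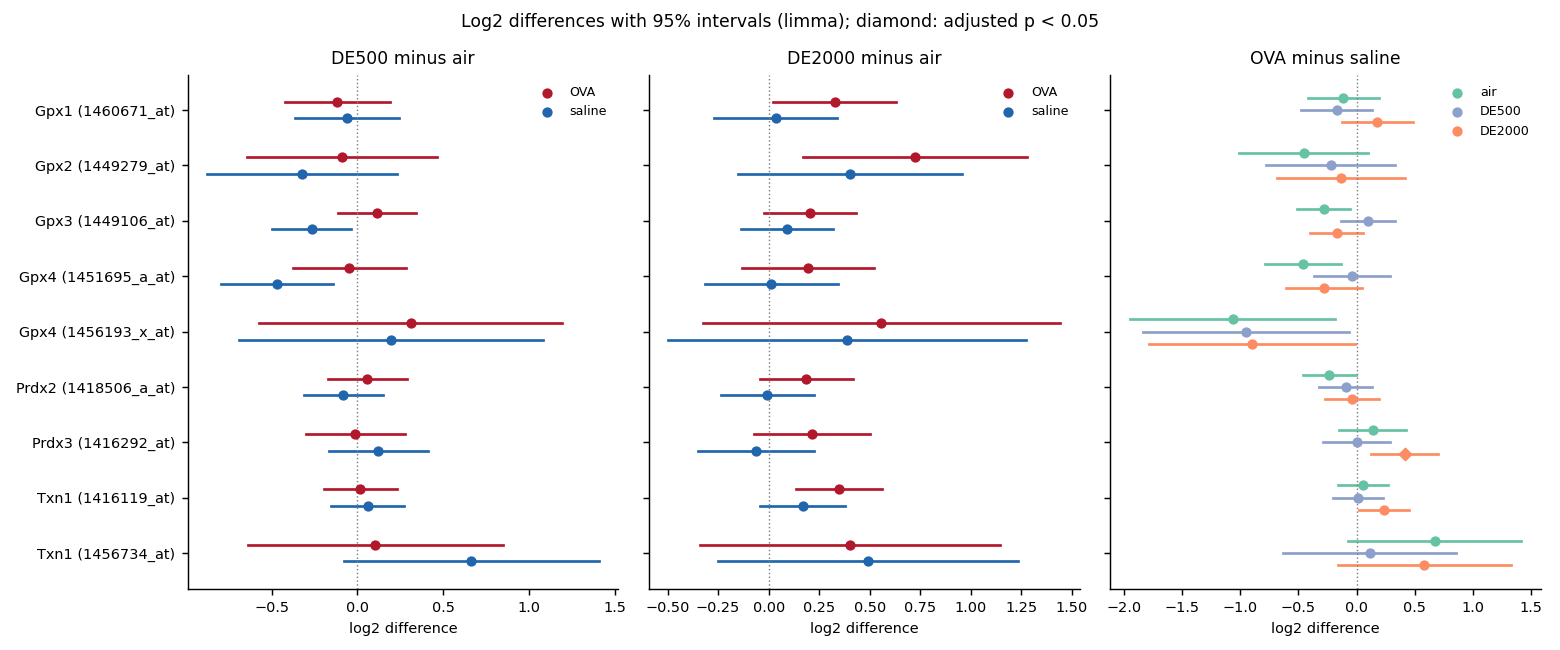
Log2 differences with 95% intervals for the 9 tested probe sets, for DE500 minus air, DE2000 minus air and OVA minus saline; colours separate the arms or exposures, and a diamond marks an adjusted p below 0.05. The intervals of Txn1 1416119_at, Gpx2 and Gpx1 for DE2000 minus air with OVA lie above 0, and the 1 diamond is Prdx3 for OVA minus saline at DE2000.

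Over the 9 tested probe sets, 0 were called for diesel exhaust in any of the 7 exhaust comparisons. For DE2000 minus air the share called among all 13575 tested probe sets was itself small, 0.0221% with OVA, 0.147% with saline and 0.0884% in the average. For DE500 minus air it was 0% with OVA, 0.00737% with saline and 0% in the average, and for DE2000 minus DE500 it was 0.081%. The counts of 0 come from limma. At an unadjusted p below 0.05 the members gave 3 of 9 probe sets for DE2000 minus air with OVA (8.13% of all tested probe sets), 0 with saline (5.94%) and 2 in the average (7.52%). They gave 0 for DE500 minus air with OVA (0.921% of all), 2 with saline (7.9%) and 1 in the average (4.43%), and 5 for DE2000 minus DE500 (10.3%). Those 5 were Gpx2, Gpx4 1451695_a_at, at 0.36 ± 0.11, Txn1 1416119_at, at 0.22 ± 0.07, Gpx3, at 0.23 ± 0.08, and Gpx1, all above 0. Groups of 4 arrays did not overlap for 1 of 9 member probe sets in DE2000 minus air with OVA (4.35% of all tested probe sets) and 0 with saline (4.32%). For DE500 minus air they did not overlap for 0 with OVA (1.5% of all) and 2 with saline (3.45%), which were Gpx3 and Gpx4 1451695_a_at.

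With each gene read from its brighter probe set, all 7 genes lay above 0 for DE2000 minus air with OVA, with a median log2 difference of 0.21, against 43.8% of all tested probe sets above 0, though quantile normalization put Gpx3 at -0.01. For DE2000 minus DE500 all 7 lay above 0 as well, with a median of 0.23, against 47.8% of all, though Prdx3, at 0.02 ± 0.10, turned to -0.02 with array weights and as low as -0.04 without 1 array. For DE2000 minus air with saline 5 of 7 lay above 0, with a median of 0.03, and 3 to 6 of 7 over the alternatives. For DE500 minus air 3 of 7 lay above 0 with OVA and 2 of 7 with saline, with medians of -0.01 and -0.08, and without 1 array these counts were 2 to 6 and 1 to 4. These comparisons share their air or DE500 arrays, and several of the genes vary together between arrays, so the counts are not independent of each other.

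Summed signals of some lung cell markers differed between exposures too. The alveolar type 2 markers had a summed signal with OVA of 87794 to 107659 in air, 93144 to 105753 at DE500 and 106548 to 131961 at DE2000, over the 7 of 8 markers on the array. With saline the same sum was 103458 to 124915 in air, 92522 to 124410.0 at DE500 and 109405 to 118993 at DE2000. All 7 of these markers lay above 0 for DE2000 minus DE500, and 0 were called. All 5 club cell markers were on the array, and with OVA their sum was 100005 to 118533 at DE2000 against 86724 to 101227 at DE500. With saline it was 101416 to 113938 at DE2000 against 92438 to 140608 at DE500, and the groups overlapped. The neutrophil markers, 7 of 8 on the array with Camp below the limit on dim signals, differed in the other arm, with a sum of 7172 to 12567 at DE2000, against 3874 to 6053 in air, both with saline. With OVA the neutrophil sum was 4607 to 6256 at DE2000 against 4027 to 6092 in air, and the groups overlapped. The part of these cells in the values of the peroxidases was not tested.

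OVA and saline arrays differed in RNA quality, and this stands before every OVA result. The log2 3'/5' ratio, which sets the signal of control probe sets at the 3' end over that at the 5' end, averaged over Gapdh and actin, which rises when RNA is broken, was 0.21 ± 0.58 on the 12 OVA arrays and 1.84 ± 1.28 on the 12 saline arrays (SD). It ranged from -0.13 to 2.02 with OVA and from 0.10 to 4.38 with saline. The highest OVA array was replicate 4 of DE2000, and the highest saline arrays were replicates 1 and 4 of DE500. The log2 signal of the B1 repeat control, a repeat found in many unspliced transcripts, was 11.55 ± 0.46 with OVA and 12.98 ± 0.53 with saline (SD, 12 arrays each).

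Several members followed the 3'/5' ratio within the saline arm. Pearson's r over the 12 saline arrays was 0.829 for Gpx1 (permutation test, p = 0.000680, 0.0122 adjusted over 18 relations), with a Spearman rho of 0.888 (permutation p = 0.000220) and an r of 0.919 without the 2 arrays farthest from the median ratio. Prdx2 gave an r of 0.782 and a rho of 0.818 (permutation test, adjusted p = 0.0229 and 0.0167), and 0.919 without those 2 arrays. Gpx4 1456193_x_at gave an r of 0.766 and a rho of 0.755 (permutation test, adjusted p = 0.0229 and 0.0330), and 0.585 without them. Txn1 1416119_at gave an r of 0.732 and a rho of 0.748 (permutation test, adjusted p = 0.0279 and 0.0330), and 0.579 without them. For Gpx4 1451695_a_at r was -0.175 over the 12 saline arrays and 0.738 without those 2, so the 2 arrays decide its sign (permutation test, adjusted p = 0.698 over all 12, rho 0.0490). They decide the value of 3 more members: r without them was 0.572 for Gpx3, against -0.132 over all 12, 0.722 for Gpx2, against 0.209, and -0.754 for Prdx3, against 0.0242. Over the 12 OVA arrays, none of the 9 relations passed, with the smallest adjusted p at 0.0994 for Gpx4 1451695_a_at (permutation test, r = 0.637, and 0.0345 without the 2 farthest arrays).

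**Figure D3:**
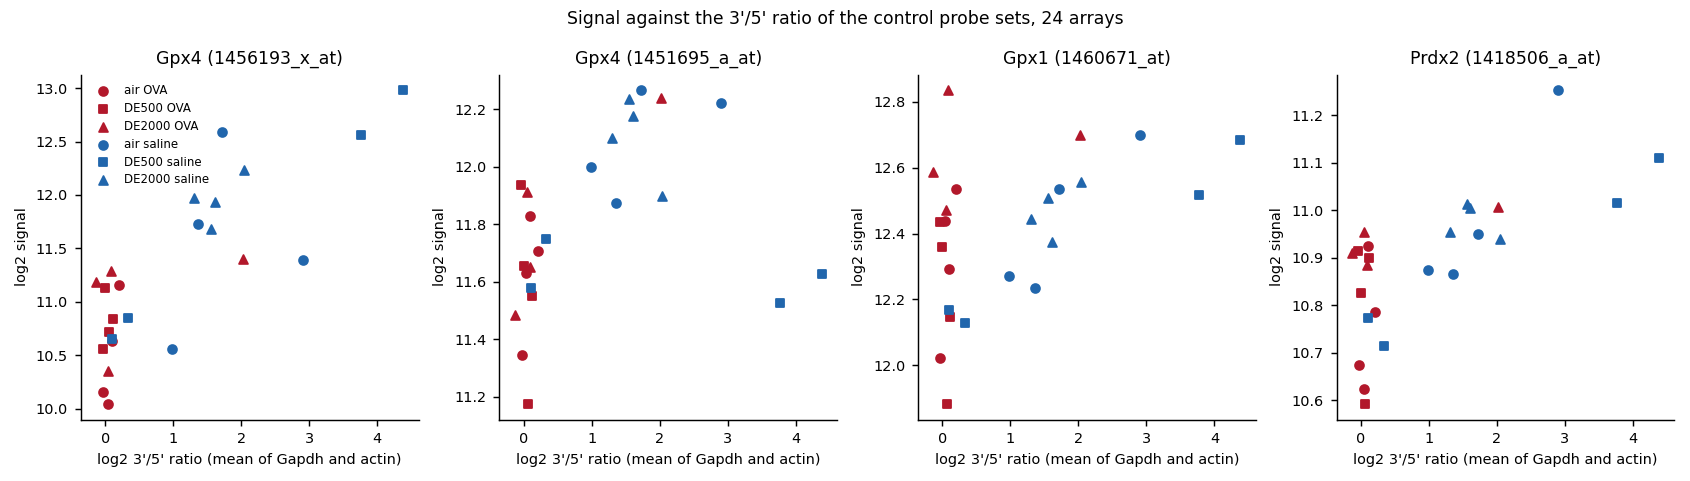
Log2 signal of Gpx4 (both probe sets), Gpx1 and Prdx2 against the log2 3'/5' ratio of the control probe sets, 1 point per array, red for OVA and blue for saline, with a symbol for each exposure. OVA arrays other than 1 sit near a ratio of 0, and within the saline arm Gpx1, Prdx2 and Gpx4 1456193_x_at are higher where the ratio is higher.

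In OVA against saline mice, Gpx4 was the only called member gene of the average over exposures, and it fell. In that comparison 46.3% of all tested probe sets were called. The probe set 1456193_x_at averaged -0.97 ± 0.25, 0.510-fold (95% interval 0.358 to 0.727), with an adjusted p of 0.00289 in limma, and 1451695_a_at averaged -0.26 ± 0.09, 0.834-fold (95% interval 0.731 to 0.951), with an adjusted p of 0.0229. The 1456193_x_at signals lay between 1056 and 2704 on the 12 OVA arrays and between 1504 and 8080.0 on the 12 saline arrays. At DE2000 the OVA arrays read 1307, 2329.7, 2505 and 2704 and the saline arrays 4809, 3914, 4025 and 3275, without overlap, whereas in air the OVA arrays read 1589, 2287, 1144 and 1056 and overlapped the saline arrays. For 1451695_a_at the OVA minus saline difference was -0.46 ± 0.16 in air (adjusted p = 0.0515, just missing the threshold), -0.04 ± 0.16 at DE500 and -0.28 ± 0.16 at DE2000. In air its OVA arrays all lay below its saline arrays, and at DE500 the groups overlapped. At DE500 with OVA the 1456193_x_at signals were 1504, 2235, 1829 and 1687, on both sides of the 2 low saline arrays of that exposure and below the other 2. Without replicates 1 and 4 of DE500 with saline and replicate 4 of DE2000 with OVA, the DE500 difference of this probe set was 0.06 ± 0.37 (adjusted p = 0.975), against -0.95 ± 0.43 (adjusted p = 0.129) on all arrays.

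Both Gpx4 calls were lost with either RNA-quality measure as a covariate. Such a loss was not particular to Gpx4: with the 3'/5' ratio the share of all tested probe sets called fell from 46.3% to that given with the related lists. Both measures also differ between the arms, so these fits cannot tell OVA and RNA quality apart. With the 3'/5' ratio in the model, OVA minus saline averaged -0.23 ± 0.23 (adjusted p = 0.565) for 1456193_x_at and -0.20 ± 0.12 (adjusted p = 0.286) for 1451695_a_at. With the B1 signal in the model, 1456193_x_at turned to 0.24 ± 0.35 (adjusted p = 0.769) and 1451695_a_at gave -0.16 ± 0.17 (adjusted p = 0.647). Without the 3 arrays that stood apart in the 3'/5' ratio, and with no covariate, both stayed called, at -0.67 ± 0.19 (adjusted p = 0.00806) and -0.32 ± 0.09 (adjusted p = 0.00725). The part of RNA quality in the Gpx4 difference was not tested beyond these fits.

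The other glutathione peroxidases were not called for OVA. Gpx1 averaged -0.04 ± 0.08 for OVA minus saline, but 0.16 with the 3'/5' ratio in the model, 0.18 with the B1 signal and 0.05 with quantile normalization. Gpx2 averaged -0.27 ± 0.15, but 0.02 with the 3'/5' ratio and 0.17 with the B1 signal. Gpx3 averaged -0.12 ± 0.06, but 0.01 with quantile normalization. In air, Gpx3 gave -0.28 ± 0.11 (adjusted p = 0.0821), and every OVA array lay below every saline array of that exposure. At DE2000 the Gpx3 groups overlapped and the difference was -0.17 ± 0.11.

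Prdx3, the mitochondrial peroxiredoxin, rose with OVA at DE2000, by 0.41 ± 0.14 on the log2 scale. That is 1.33-fold (95% interval 1.09 to 1.63), with an adjusted p of 0.0416 in limma, where 18.1% of all tested probe sets were called. The OVA arrays at DE2000 read 598, 973, 840.3 and 677 and the saline arrays 570.2, 603, 559 and 546, so 3 of the 4 OVA arrays lay above all saline arrays and 1 fell among them. In air the difference was 0.14 ± 0.14 and at DE500 0.00 ± 0.14, and the average over exposures was 0.18 ± 0.08 (adjusted p = 0.0637). The call at DE2000 was lost when any 1 of 6 arrays was left out (replicates 2 and 3 of DE2000 with OVA and each of DE2000 with saline), and without replicate 2 of DE2000 with OVA the difference was 0.29 with an adjusted p of 0.163. It was lost with median scaling, with no filter and with only the groups compared, and also with the 3'/5' ratio in the model, at 0.38 ± 0.14 (adjusted p = 0.0755), and with the B1 signal, at 0.26 ± 0.21 (adjusted p = 0.470). Prdx2 averaged -0.12 ± 0.06 for OVA minus saline, but 0.02 with the 3'/5' ratio in the model and 0.10 with the B1 signal, and was not called at any exposure.

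Txn1 1416119_at lay higher with OVA at DE2000 without passing the threshold. There the OVA arrays at 6689, 7761, 7825 and 7724 all lay above the saline arrays at 6204, 6646, 6029.6 and 6577, and the difference was 0.24 ± 0.10 (adjusted p = 0.114). In air the difference was 0.05 ± 0.10 and at DE500 0.01 ± 0.10, with overlapping groups. With the 3'/5' ratio in the model Txn1 was called as higher with OVA, at 0.33 ± 0.09 (adjusted p = 0.0103) at DE2000 and 0.23 ± 0.06 (adjusted p = 0.0116) in the average. Quantile normalization called it too, at 0.24 (adjusted p = 0.0281) at DE2000 and 0.18 (adjusted p = 0.00154) in the average, and leaving out the 3 arrays called it in the average, at 0.16 (adjusted p = 0.0199). With the B1 signal the average was 0.26 (adjusted p = 0.144). Calls were common in these comparisons: with no covariate 18.1% of all tested probe sets were called at DE2000 and 46.3% in the average. For the average, the shares with the 3'/5' ratio and without the 3 arrays are given with the related lists. The calls are not read as particular to Txn1. Median scaling turned the Txn1 value in air to -0.07. The dimmer Txn1 probe set averaged 0.46 ± 0.21 for OVA minus saline (adjusted p = 0.0760).

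The members' counts of calls for OVA did not exceed the share called among all tested probe sets. Called were 2 of 9 probe sets, both falling, in the average over exposures, where 46.3% of all tested probe sets were called, and 1 of 9, rising, at DE2000, where 18.1% were called. In air 0 of 9 were called against 14.8% of all, and at DE500 0 of 9 against 12.5%, while 4 of the 9 in air and 1 at DE500 had an unadjusted p below 0.05 in limma, against 32.5% and 31.8% of all. The OVA and saline arrays did not overlap for 2 of 9 in air (29.1% of all), 0 at DE500 (15.4%) and 2 at DE2000 (19%). The median over the 7 genes was -0.12 in the average over exposures, with 2 of 7 above 0, against 48.7% of all tested probe sets. The tally depended on the fit: 5 of 7 lay above 0 with either RNA-quality covariate and 4 of 7 with quantile normalization.

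The interaction asks whether DE2000 minus air differed between OVA and saline mice. It was called for 0 of 9 probe sets and for 0% of all tested probe sets, and 0 of the 9 had an unadjusted p below 0.05 in limma. With each gene read from its brighter probe set, the point estimates of all 7 genes lay above 0, against 47.1% of all tested probe sets, from 0.11 ± 0.16 for Gpx3 to 0.32 ± 0.38 for Gpx2, though quantile normalization moved Gpx3 to -0.07 and array weights moved Gpx2 to -0.16. Each 95% interval included 0. The second Txn1 probe set gave -0.09 ± 0.51. For Txn1 1416119_at the interaction was 0.18 ± 0.14, which as a ratio of folds spans 0.921 to 1.40.

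Fits that took RNA quality into account made calls for exhaust that the fit without it did not. With the 3'/5' ratio in the fit, DE2000 minus DE500 was 0.77 ± 0.17 (adjusted p = 0.02) for Gpx2 and 0.22 ± 0.06 (adjusted p = 0.0370) for Txn1 1416119_at, both called, where 2.36% of all tested probe sets were called. With the B1 signal, Gpx2 was called at 0.80 ± 0.17 (adjusted p = 0.0294), where 1.78% of all were, and for DE2000 minus air with OVA both Txn1, at 0.39, and Gpx2, at 0.83, were called, where 7.17% of all were. Without the 3 arrays apart in the ratio, Gpx2, at 0.70 ± 0.19 (adjusted p = 0.0216), Txn1, at 0.31 ± 0.07 (adjusted p = 0.00908), and Gpx1, at 0.37 ± 0.11 (adjusted p = 0.0296), were called for DE2000 minus DE500, where 11% of all were. The 3 arrays left out include replicates 1 and 4 of DE500 with saline, so that group kept only replicates 2 and 3 in that fit. Over the 4 fits of DE2000 minus DE500, the estimate of Gpx2 lay between 0.70 and 0.80 and that of Txn1 between 0.22 and 0.31. Leaving out 1 array at a time, with no covariate, called 0 members for this comparison. There Gpx2 lay between 0.64 and 0.89 (smallest adjusted p = 0.0503 in limma) and Txn1 1416119_at between 0.19 and 0.26.

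**Figure D4:**
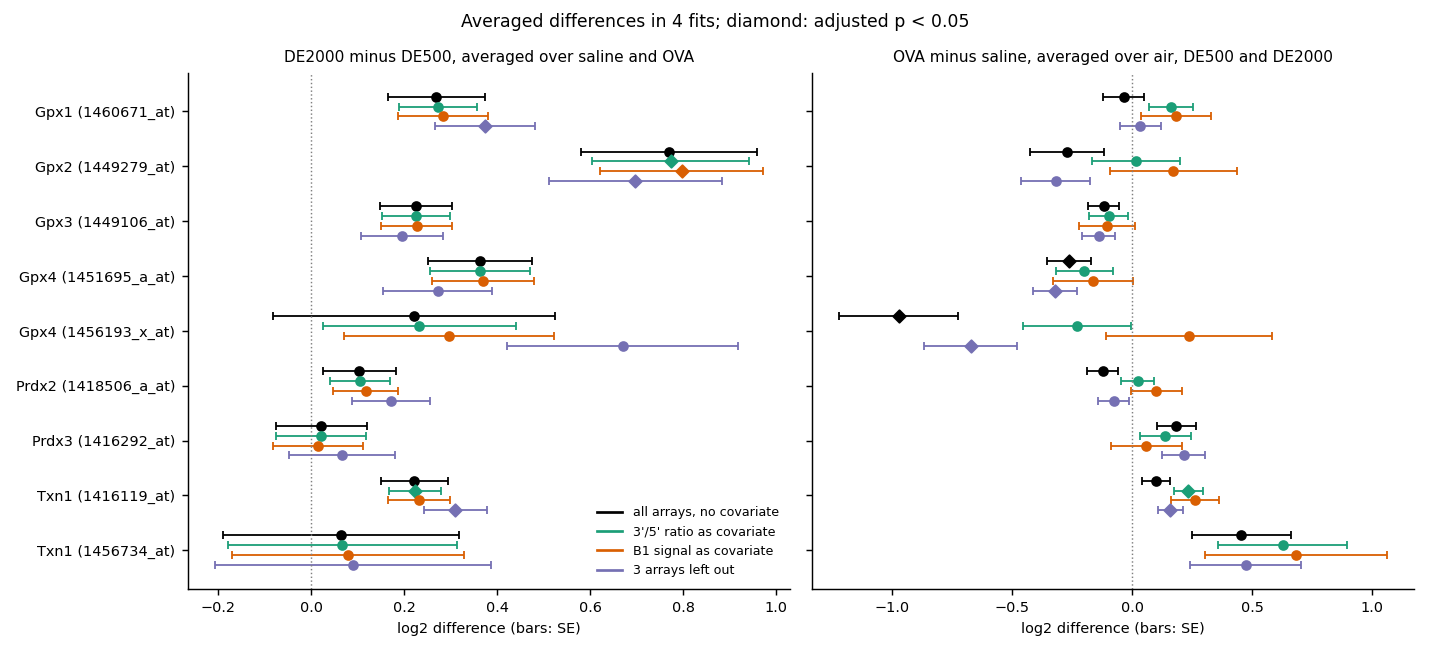
Log2 differences with SE of the 9 tested probe sets for DE2000 minus DE500 and for OVA minus saline, each averaged over the other factor, in 4 fits; diamonds mark an adjusted p below 0.05. For DE2000 minus DE500 the 4 estimates of Gpx2 and of Txn1 1416119_at lie close together, whereas for OVA minus saline the estimate of Gpx4 1456193_x_at runs from -0.97 with no covariate to 0.24 with the B1 signal.

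The wider pathway was read from 4 lists. Among other peroxidases, peroxiredoxins and thioredoxins, 17 of 19 genes were on the array and 14 were tested. For glutathione synthesis and recycling 17 of 19 were on the array and 15 were tested, and for superoxide dismutases, catalase and haem breakdown 13 of 14 and 9. For selenoproteins and their synthesis 17 genes were on the array and 14 were tested. For exhaust and for the interaction, 0 genes of any list were called in limma. The smallest unadjusted p for DE2000 minus DE500 belonged to Msrb1, a selenoprotein that repairs oxidised methionine, at 0.48 ± 0.14 (adjusted p = 0.377), to Sod2, the mitochondrial superoxide dismutase, at 0.35 ± 0.10, and to Sod1, its cytosolic counterpart, at 0.38 ± 0.13. Over the lists the median log2 difference for DE2000 minus DE500 was 0.05 for the other peroxidases and thioredoxins, 0.10 for glutathione genes, 0.20 for superoxide dismutases and their group, and 0.07 for selenoproteins, against -0.01 over all tested probe sets and 0.23 over the 7 members. With the 3'/5' ratio in the model, Sod1 and Sod2 rose for DE2000 minus DE500 while 0 genes of the other 3 lists were called, a fit applied to the lists after their values had been seen.

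For OVA minus saline averaged over exposures, the lists split in both directions. The shares called in the 4 lists stand against 46.3% of all tested probe sets. Among the other peroxidases and thioredoxins 2 of 14 rose and 4 fell. Gpx8, a peroxidase of the endoplasmic reticulum, rose by 0.41 ± 0.10 (adjusted p = 0.00162), and Glrx, a glutaredoxin, by 0.39 ± 0.13. Those that fell were Txn2, the mitochondrial thioredoxin, at -0.34 ± 0.11, Txnl1 at -0.45 ± 0.11, Txnrd3, a thioredoxin reductase, at -0.45 ± 0.11, and Glrx2 at -0.25 ± 0.09. Among the glutathione genes 4 of 15 rose and 5 fell. Both subunits of glutamate-cysteine ligase, the rate-limiting enzyme of glutathione synthesis, fell, Gclc by 0.33 and Gclm by 0.66 on the log2 scale. The pentose phosphate enzymes Pgd, at -0.62 ± 0.14, Tkt, at -0.45 ± 0.13, and Taldo1, at -0.50 ± 0.10, fell too. The NADPH-producing malic enzyme Me1 rose, at 0.78 ± 0.16 (adjusted p = 0.000409), as did Gsr, which returns glutathione to its reduced form, at 0.28 ± 0.10, Mgst3 at 0.41 ± 0.12 and Mgst1 at 0.18 ± 0.06.

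In the list of superoxide dismutases, catalase and haem breakdown 2 of 9 genes rose and 2 fell. Sod3, the extracellular superoxide dismutase, rose by 0.70 ± 0.22 and Fth1, the ferritin heavy chain that stores iron, by 0.54 ± 0.10 (adjusted p = 0.000278). Sod1, at -0.29 ± 0.11, and Hmox2, the constitutive haem oxygenase, at -0.44 ± 0.18, fell. Among the 14 selenoprotein genes Selenof, at 0.34 ± 0.08, and Selenok, at 0.23 ± 0.05, both of the endoplasmic reticulum, rose, and Selenow, at -0.53 ± 0.13, fell. With the 3'/5' ratio in the model 0 of 14, 1 of 15, 1 of 9 and 1 of 14 genes of the 4 lists were called, Gclc falling and Sod2 and Selenok rising, where 14.1% of all tested probe sets were called. Without the 3 arrays apart in the ratio 4 of 14, 8 of 15, 4 of 9 and 3 of 14 were called, where 41.4% of all were. The part of RNA quality in these counts was not separated further.

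**Figure D5:**
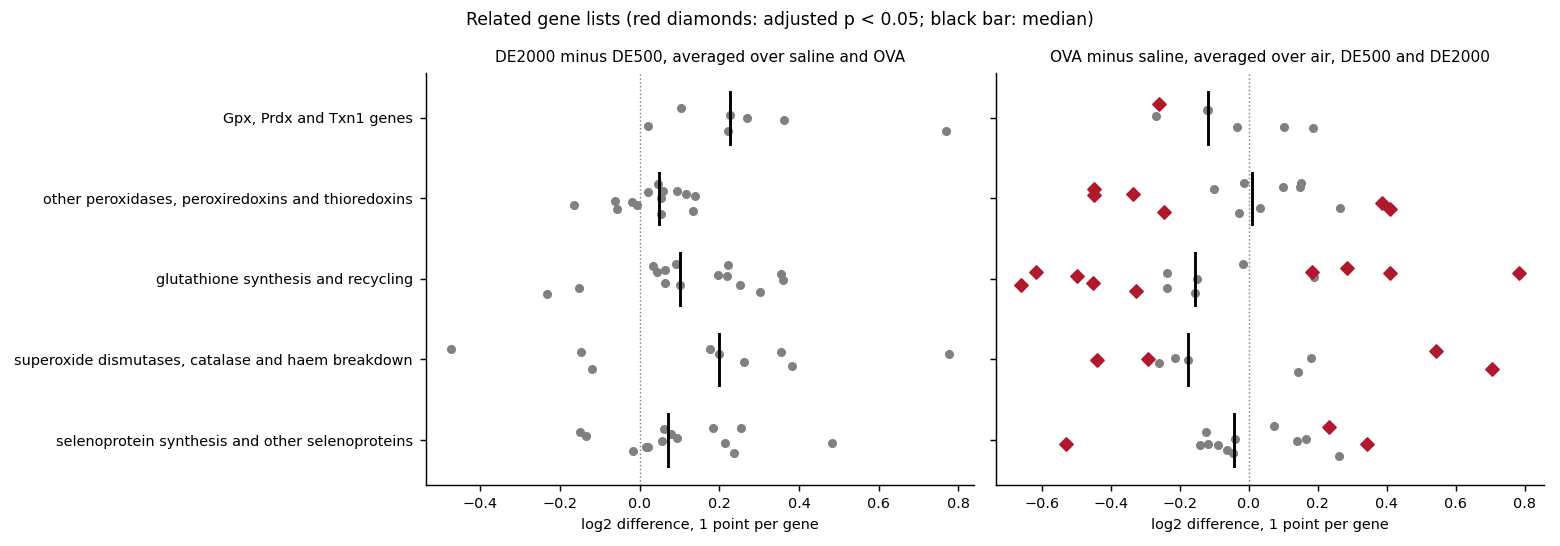
Log2 differences of the 7 measured peroxidase, peroxiredoxin and thioredoxin genes and of the tested genes of the 4 related lists, 1 point per gene, for DE2000 minus DE500 and for OVA minus saline; red diamonds mark an adjusted p below 0.05 and black bars the median. The 7 genes lie above 0 for DE2000 minus DE500, where Prdx3 turned below 0 with array weights, and called genes of the other lists lie on both sides of 0 for OVA minus saline.

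Within the family the genes did not vary as 1 block between arrays. Over the 24 arrays Pearson's r of log2 signals was 0.775 between Gpx1 and Gpx2 and 0.765 between Gpx1 and Txn1, and it stayed at 0.732 and 0.797 for deviations from the group means. Gpx2 and Gpx4 gave 0.701, and Gpx1 and Prdx2 0.679. Prdx3 gave -0.390 with Gpx3, -0.346 with Gpx4 and 0.493 with Txn1, and -0.352, -0.194 and 0.334 for deviations from the group means. Gpx3 gave 0.184 with Gpx1 and 0.164 with Txn1, but 0.538 with Gpx2 and 0.581 with Gpx4. For deviations from the group means those values of Gpx3 were -0.0661, 0.0216, 0.196 and 0.166. These values describe arrays that share the difference in RNA quality and are given without a p.

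The genes most like each member over the 24 arrays were Cox7a2, Grcc10 and Nop53 for Gpx1 (r of 0.918, 0.904 and 0.898), Cox5b, Eif2b2 and Rps19 for Gpx2 (0.857, 0.848 and 0.820), and Sftpd, Esam and Rab7 for Gpx3 (0.756, 0.750 and 0.748). For Gpx4 they were Wbp1, Cavin1 and Apbb1 (0.849, 0.849 and 0.843). For Prdx2 they were Elovl1, Trir and Reep5 (0.884, 0.881 and 0.878), and for Prdx3 Grp, Spry2 and Selenof (0.722, 0.718 and 0.715). For Txn1 they were Sod2, Rpl19 and Atp6v0e (0.916, 0.867 and 0.863), and for deviations from group means the r of Txn1 with Sod2 was 0.838.

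By group mean, the order of the 6 groups differed between genes. DE2000 with OVA was the highest group for Gpx1, Prdx3 and both Txn1 probe sets, and DE2000 with saline for Gpx2, Gpx3 and both Gpx4 probe sets. Prdx2 1418506_a_at was highest in air with saline. The fold from the lowest to the highest group ran from 1.18 for Prdx2 to 2.74 for Gpx4 1456193_x_at. Neighbouring groups overlapped in all of these orders except for Txn1 1416119_at, in which DE2000 with OVA lay above DE2000 with saline on every array.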

How the data were processed

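Lung RNA of 24 mouse samples was hybridised to 1-colour Affymetrix arrays. The deposited intensity values, linear and 1 per probe set on each array, were made by the authors with MAS5, per the submitters' processing notes. The sources used here give no MAS5 version. Without its lowest and highest 2%, every array averaged 500.1 to 500.2, so the arrays had been scaled to a common trimmed mean before deposit. That scaling keeps relative levels only.

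Of 22690 probe sets, 64 controls were set aside. No pseudocount was added before taking log2. Probe sets with a mean log2 signal above the 40th percentile were tested, 13575 in number. limma 3.58.1 in R 4.3.3 fitted 1 mean per group to all 24 arrays, with trended eBayes, and the Benjamini-Hochberg adjustment ran over all tested probe sets in each of 12 comparisons. Called means an adjusted p below 0.05. Values after ± are standard errors of log2 differences unless named SD. The fit was tested on simulated data with independent noise for each probe set. That test does not cover differences in RNA quality between arrays. Tables and figures used Python 3.11.15, pandas 2.3.3 and matplotlib 3.10.9.

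All 10 genes are named, from each other list the called genes or up to 3 with the smallest p, and for each member the 3 most correlated genes. The members and lists were chosen with earlier results of these data known. RefSeq IDs matched for all 7 measured genes. The alternatives were quantile normalization, median scaling, no filter, a stricter one (60th percentile), a pseudocount of 50, array weights, no variance trend, only the groups compared, the replicate number as a block, the 3'/5' ratio or the B1 signal as covariate, leaving out 3 arrays together, and leaving out each array. For the related lists, the RNA-quality alternatives were chosen after seeing the data.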

Additional observations from a re-analysis of the deposited data

Results flagged for a closer look

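In 4 of the 60 combinations of probe set and group, 1 array stood far from the other 3, with a gap above Dixon's 95% critical value as a share of the group's whole log2 range. About 1 in 20 groups, here 3, are marked in this way by chance. Gpx2 read 378 on replicate 1 of DE500 with saline, above the other arrays (gap 0.856 of the range), and that array also had the highest 3'/5' ratio. Gpx3 read 16748 on replicate 3 of air with saline, above the others (0.882). Txn1 1416119_at read 5689.9 on replicate 3 of air with OVA, below the others (0.962). Txn1 1416119_at read 6689 on replicate 1 of DE2000 with OVA, below the others (0.917).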

How the results depend on the processing

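The counts of called members for the 12 comparisons kept within 1.5 times under 398 of 432 alternatives, counting each left-out array. Counts of 0 that stayed at 0 are among these. With no alternative, at most 0.147% of all tested probe sets were called for exhaust, so the tally says little about those comparisons. For DE2000 minus air with OVA the B1 covariate gave 2 calls (Txn1 and Gpx2). For DE2000 minus DE500 the 3'/5' covariate gave 2, the B1 covariate 1 and leaving out the 3 arrays apart in the ratio 3. The shares of all tested probe sets called in these fits for exhaust are given above. With no alternative, OVA minus saline called 14.8% of all tested probe sets in air and 12.5% at DE500. It called 18.1% at DE2000 and 46.3% in the average. The counts that follow are not read as results about the members. For OVA minus saline in air, median scaling, the 60th percentile filter, the pseudocount of 50, array weights and fitting only the groups compared gave 1 each (Gpx4 1451695_a_at), the 3 arrays left out gave 2, and leaving out 1 array gave 0 to 1. Those single arrays were replicates 1 and 4 of DE500 and 2 and 4 of DE2000 with OVA, and replicates 2 and 4 of air and 1 and 3 of DE500 with saline. The call was that of Gpx4 1451695_a_at, except without replicate 2 of air with saline, where it was 1456193_x_at. Median scaling moved the median of all tested probe sets there to -0.13, against -0.01, and that of the interaction to 0.10. At DE500 leaving out 1 array gave 0 to 1, with Gpx4 1456193_x_at called without replicate 2 or 3 of DE500 with saline. At DE2000 quantile normalization gave 2, median scaling, no filter and the B1 covariate 0, the 3 arrays left out 3 (Prdx3 rising, both Gpx4 probe sets falling) and leaving out 1 array 0 to 1. There, fitting only the groups compared kept 1 call but moved it, with Prdx3 lost (adjusted p = 0.129) and Gpx4 1456193_x_at called (adjusted p = 0.0236), and the 3'/5' covariate moved it to Txn1. In the average over exposures the 3'/5' covariate gave 1 call (Txn1 rising), the B1 covariate 0 and leaving out 1 array 2 to 4, with 4 without replicate 4 of DE2000 with OVA (Prdx3 and Gpx2 added). With the B1 covariate Gpx4 1456193_x_at turned to 0.24. The cause of these changes was not tested. Of the single values, 3795 kept their side of the threshold. These kept their direction too, or turned in sign uncalled by less than the mean SD within groups. Another 41 passed the threshold newly and 14 fell below it. A further 25 turned in sign uncalled by at least that SD, and 1 turned in sign where a call was involved.

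Arrays with the same replicate number were not alike on average: over 60 pairs the residual correlation averaged 0.03, from -0.43 to 0.59. Arrays with different numbers were not set beside them, so these values cannot exclude a pairing. With the replicate number as a block all 12 counts of called members were equal to those without it, and Gpx4 1456193_x_at gave -0.97 for OVA minus saline. With 4 arrays a group, the printed intervals give the precision. No smallest detectable difference was worked out, and signal over background was not measured here. The 3 arrays left out together were known from earlier results to stand apart.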
